A study of Mus musculus with 6 samples.

Results

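The genes described here are 7 genes of the crypt base, taken by name from the deposited table of 7120 genes: the stem cell markers Lgr5, Olfm4, Prom1, Lrig1 and Cdca7, and Znrf3 and Ctnnb1 of the Wnt pathway. RNA came from ileal crypts of C57BL/6 mice aged 3 months, cut out by laser microdissection of fixed, paraffin-embedded sections. The groups are Tl1a-tg mice, which carry a Tl1a transgene (3 libraries), and WT mice (3 libraries). The labels do not describe the transgene's promoter and do not say whether each library came from its own mouse, so the spread behind any p-value may be technical.

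Stem cells sit at the base of each crypt between Paneth cells and renew the epithelium. Wnt ligands bind Frizzled and LRP receptors there and keep beta-catenin from being degraded, so that it enters the nucleus and switches on target genes with TCF factors. R-spondins bind LGR receptors and remove ZNRF3 and RNF43, the ubiquitin ligases that clear Frizzled from the cell surface. TL1A, the product of Tnfsf15, belongs to the tumour necrosis factor cytokines, and its receptor activates NF-kB.

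Promoters of 5 of the 7 genes were found by symbol in a RefSeq table (mouse build GRCm38.p6). Those of Olfm4 and Ctnnb1 are printed, the genes with the most equal and the most unequal fitted means. They were picked among the 4 of the 7 genes counted, by the rule given below, as having reads in both genotypes. Each line gives the 250 bases before the start site on the plus strand, 5′ to 3′, and capitals mark 2 overlapping matches to the NF-kB motif.
Olfm4, chr14:80000052-80000301: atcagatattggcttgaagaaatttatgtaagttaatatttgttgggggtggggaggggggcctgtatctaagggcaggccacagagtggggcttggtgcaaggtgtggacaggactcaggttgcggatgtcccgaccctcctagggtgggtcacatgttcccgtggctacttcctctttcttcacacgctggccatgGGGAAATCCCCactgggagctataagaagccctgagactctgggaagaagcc
Ctnnb1, chr9:120933150-120933399: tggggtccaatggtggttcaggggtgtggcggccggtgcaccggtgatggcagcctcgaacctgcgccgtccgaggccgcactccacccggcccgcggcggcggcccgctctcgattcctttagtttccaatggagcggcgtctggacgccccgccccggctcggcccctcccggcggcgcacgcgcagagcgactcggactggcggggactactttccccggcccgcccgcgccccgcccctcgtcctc

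The NF-kB motif, searched on both strands after the Olfm4 sequence had been seen, ended 42 bases before the Olfm4 start and was found in 3.90% of all 32851 promoters of the same length. It was in none of the other 6 promoters of these genes, which include a second start each for Prom1 and Ctnnb1. The TCF motif, CTTTG followed by any pair of A and T letters on either strand, was in none of the 7 promoters and in 14.8% of all. The printed Ctnnb1 promoter held 35 CpG and the Olfm4 promoter 4, against a median of 6 over all promoters. A match describes letters in this window and does not show binding.

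The deposited per-library values are, for each gene, 1 fitted mean per genotype times 1 factor per library, so they hold no spread between libraries. The factors ran from 0.781 to 1.10 in Tl1a-tg and from 0.591 to 1.46 in WT. Fitted means below are divided by these factors and are in reads per library at a common depth. A genotype is called without reads where its fitted mean lies at the most frequent low value, the floor of 0.193 in Tl1a-tg (1939 genes) and 0.176 in WT (2981 genes), or below 0.01. This reading is inferred from the values. Next in frequency came 0.375 in Tl1a-tg (262 genes) and 0.342 in WT (333 genes). Genes at these values, as Lgr5 and Ctnnb1 in WT, are counted as with reads, which the values alone cannot establish. Values shared by so many genes may also be those of genes without reads. The counts of genes with reads in both genotypes may therefore be too high.

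The crypt label was checked against marker genes. Paneth cell markers had reads in both genotypes for 12 of 12 genes, with fitted means that summed to 48915 in Tl1a-tg, against 49729 in WT. Of 6 stem cell markers 5 were listed, all counted with reads in both genotypes, and their sums were 1432 and 1463. These 5 include Lgr5 and Olfm4, which are themselves described here, so they do not check the label independently. Olfm4 gave 677 and 679 of the sums, which hide the gap of Lgr5, at 131 in Tl1a-tg and 0.342 in WT. Goblet cell markers, 5 of 8 listed, summed to 20617 in Tl1a-tg and 20430 in WT. Most of this came from Muc2 (12552 and 13390) and Spink4 (7843 and 7039), the only goblet markers with reads in both genotypes. Agr2 (186) and Spdef (35.1) were read in Tl1a-tg but not in WT, and Fcgbp (1.08) was read in WT but not in Tl1a-tg. Enteroendocrine markers, 3 of 8 listed, summed to 29.1 and 114. Summed markers of tuft cells (4 of 7 listed) were 24.3 in Tl1a-tg and 262 in WT, and of T cells (2 of 8) 8.63 and 166. Most of the T cell gap came from Cd8b1, without reads in Tl1a-tg, against 128 in WT. Markers of proliferating cells (8 of 12) summed to 289 and 436, and of enterocytes (6 of 12) to 220 and 110. Those of fibroblasts (4 of 7) gave 200 and 54.6, and of myeloid cells (4 of 7) 11.7 and 3.33. The 1 listed marker of 8 for B and plasma cells had 3.04 and 0.939. Such gaps of single genes were common, as given below. Acta2 of smooth muscle had no reads in either. The part of other cell types in the results below was not tested. Tnfsf15, which the transgene encodes, was without reads in both genotypes and could not check the labels. In bulk crypts, fewer cells of a type and less RNA per cell cannot be told apart.

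The 7 genes fell into 3 patterns. Lgr5, Znrf3, Prom1 and Ctnnb1 had fitted means of 64.2 to 240 in Tl1a-tg and of at most 1.29 in WT, Prom1 without reads in WT. Cdca7 and Lrig1 had no reads in Tl1a-tg and fitted means of 90.3 and 27.0 in WT. Olfm4, the most abundant, had nearly the same fitted mean in both genotypes. By the authors' deposited DESeq2 test, 0 of the 7 genes passed at an adjusted p below 0.05, 6 of them having one, where 3.67% of the 1662 genes with an adjusted p did, 2.47% higher and 1.2% lower in Tl1a-tg. An unadjusted p below 0.05 was given to 4 of the 6 with a p, all with the higher mean in Tl1a-tg, where 14.6% of the 2580 genes with a p had one in either direction, 10.7% in that direction and 3.91% in the other. Many of the genes that passed did so through a near-0 fitted mean, as described with Ctnnb1 below. The genes were chosen with earlier results of these data known, so these counts are descriptions.

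**Figure D1:**
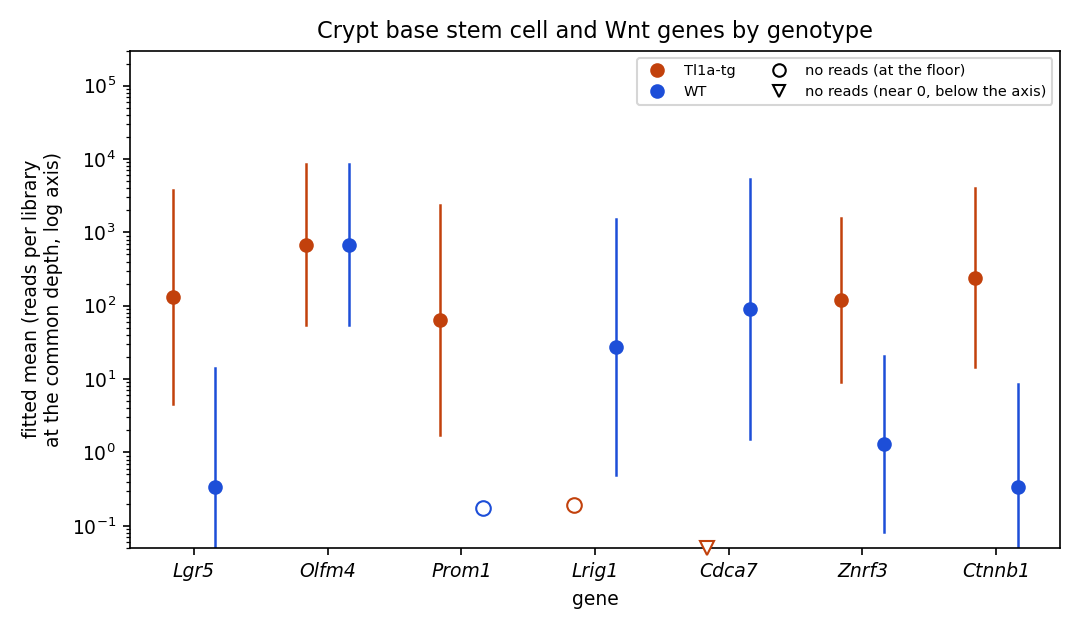
Fitted mean of each gene (reads per library at the common depth, log axis) in Tl1a-tg (left of each pair) and WT (right), with 95% intervals from the dispersion behind the deposited standard errors, cut at the lower axis limit. Open circles lie at the floor and the open triangle stands for a mean near 0. Olfm4 lies at 677 and 679, and the other 6 genes have means of at most 1.29 in 1 genotype.

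Lgr5 encodes the R-spondin receptor that marks cycling stem cells. Its deposited signal was 133, 145 and 103 in Tl1a-tg replicates 1 to 3, against 0.457, 0.202 and 0.498 in WT replicates 1 to 3. The libraries of a genotype differ here by their factors alone, so the gap between the genotypes is that of their 2 fitted means and says nothing about agreement between replicates. The fitted mean was 131 in Tl1a-tg and 0.342 in WT. The WT value is the one that 333 genes share just above the floor. The fold change that follows is set against that value and is no bound. The log2 fold change was 8.59 (standard error 3.68, 95% interval 1.37 to 15.81) in the authors' deposited table, with an adjusted DESeq2 p of 0.23. This adjusted p is shared by 251 genes, whose unadjusted p ran from 0.0122 to 0.0466, because the Benjamini-Hochberg procedure gives runs of genes 1 value.

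Olfm4 encodes a secreted glycoprotein abundant in crypt base stem cells of the small intestine. Its deposited signal was 684, 746 and 529 in Tl1a-tg replicates 1 to 3 and 907, 402 and 990 in WT replicates 1 to 3. These values too follow the library factors. Its fitted mean of 677 in Tl1a-tg ranked 40th of the 7120 genes, and that of 679 in WT ranked 43rd. Its log2 fold change was -0.01 (standard error 2.63) in the authors' deposited table, and the 95% interval of -5.16 to 5.14 holds large differences in either direction. With the log2 fold changes of all genes centred on those measured in both genotypes it became 0.37.

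Prom1 encodes prominin, a membrane glycoprotein found in stem and progenitor cells of crypts. Its fitted mean was 64.2 in Tl1a-tg, with no reads in WT. The deposited log2 fold change of 8.51 (standard error 3.93, adjusted p = 0.23 by DESeq2, in the authors' deposited table) is set against the floor and is no bound. Reads in Tl1a-tg only were the case for 38.2% of the 5846 genes with reads in either genotype.

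Lrig1 and Cdca7 stood on the other side. Lrig1, a membrane protein that dampens ErbB receptor signalling in stem cells, had no reads in Tl1a-tg and a fitted mean of 27.0 in WT. Lrig1 had p = 0.101 and an adjusted DESeq2 p of 0.345 in the authors' deposited table. Cdca7, a nuclear protein enriched in crypt base stem cells, had no reads in Tl1a-tg and a fitted mean of 90.3 in WT. The authors' table gives Cdca7 no p-value. DESeq2 leaves p missing where the count of 1 library is judged an outlier, and the table does not state the reason. A p was missing for 63.8% of all genes, among them Krt19, Fzd9, Cd44 and Myc, described below. Reads in WT only were the case for 19.9% of the genes with reads.

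Znrf3 encodes the ubiquitin ligase that removes Frizzled receptors. Its deposited signal was 121, 132 and 93.4 in Tl1a-tg replicates 1 to 3, against 1.73, 0.764 and 1.88 in WT replicates 1 to 3. The fitted mean was 120 in Tl1a-tg and 1.29 in WT, the highest WT mean of the 4 genes of this pattern. The log2 fold change was 6.53 (standard error 2.78, 95% interval 1.07 to 11.99), with an adjusted DESeq2 p of 0.23, in the authors' deposited table.

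Ctnnb1 encodes beta-catenin, which both carries the Wnt signal and joins cadherins to the cytoskeleton. Its deposited signal was 242, 264 and 187 in Tl1a-tg replicates 1 to 3, against 0.457, 0.202 and 0.498 in WT replicates 1 to 3, values fixed by the 2 fitted means and the library factors. The fitted mean was 240 in Tl1a-tg and 0.342 in WT, the WT value again being the one just above the floor. The fold change is again set against that value and is no bound. Ctnnb1 had a log2 fold change of 9.45 (standard error 3.15, 95% interval 3.27 to 15.63) in the authors' deposited table. Its p of 0.00271 ranked 62nd of all genes, behind the 61 that passed, and its adjusted DESeq2 p was 0.0727. With all log2 fold changes centred on the genes measured in both genotypes, the adjusted Wald p of Ctnnb1 was 0.0495, which is past the threshold. With near-0 means placed at the floor it was 0.248, because many genes ahead of it lost their small p. Many of the 61 that passed thus owed it to a near-0 fitted mean. The share of 3.67% given beside the counts here includes them.

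**Figure D2:**
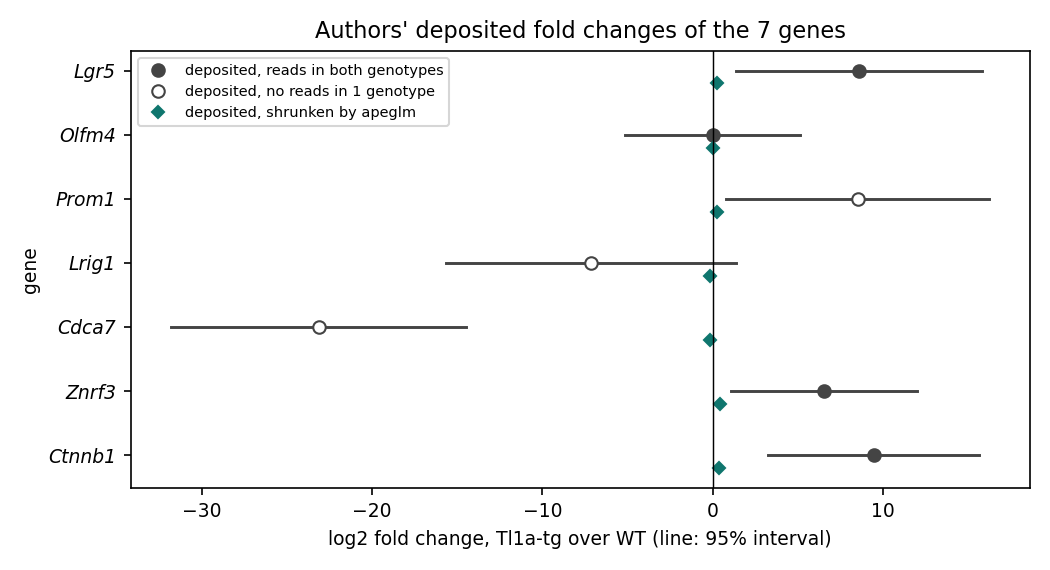
Log2 fold change (Tl1a-tg over WT) of each gene in the authors' deposited table (circles, open where 1 genotype has no reads), with its 95% interval, and the value shrunken by apeglm (diamonds). The intervals of Lgr5, Prom1, Znrf3 and Ctnnb1 lie above 0, that of Cdca7 below 0, and the shrunken values of all 7 genes lie between -0.17 and 0.44.

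The authors' shrunken log2 fold changes lay nearer 0 for the 6 genes other than Olfm4, at 0.27 for Lgr5, 0.44 for Znrf3, 0.23 for Prom1, 0.38 for Ctnnb1, -0.17 for Lrig1 and -0.17 for Cdca7 in the authors' deposited table. That of Olfm4 was 0.01, beside -0.01 before shrinkage. Shrinkage moves large values with large standard errors most. The dispersion solved from each standard error was 4.97 for Olfm4, 5.19 for Znrf3, 6.16 for Ctnnb1, 8.78 for Lgr5, 10.1 for Prom1, 12.6 for Lrig1 and 13.0 for Cdca7. Dispersion is the squared relative spread between libraries beyond counting, and its square root was 2.23 for Olfm4 and 3.61 for Cdca7. The value of Cdca7 is the ceiling that 75.9% of all genes share, so its standard error does not estimate a measured spread. The other 6 genes lay below the ceiling. The authors' mean of normalized counts for Tnfsf15 was 5.85, although its fitted means in both genotypes were near 0. That mean points to reads in libraries of the authors' model beyond these 6. The dispersion, and with it the deposited standard errors and p, may therefore rest on such libraries too.

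An order of levels was set per kilobase of exon, from GENCODE M21 exon lengths of 2424 to 7893 bases. In Tl1a-tg the fitted means per kilobase were 233 for Olfm4, 66.2 for Ctnnb1, 27.9 for Lgr5, 15.2 for Znrf3 and 13.2 for Prom1. In WT they were 234 for Olfm4, 37.2 for Cdca7 and 5.44 for Lrig1, and at most 0.164 for the other genes with reads. The 95% interval of a fitted mean from the dispersion spanned a factor of 12.5 either way for Olfm4 in Tl1a-tg and of 28.6 for Lgr5. Among the genes with reads, each interval per kilobase overlapped that of its neighbour in either order.

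Fitted means far apart between the genotypes were common at the level of these genes. Of 4381 genes whose higher fitted mean lay from 20 to 300, limits chosen after the values were seen, 66.8% had a fitted mean below 2 in the other genotype, 42.8% with the low value in WT and 24.1% with it in Tl1a-tg. All 6 of the genes other than Olfm4 fell in that range with a low value in 1 genotype, 4 in WT and 2 in Tl1a-tg. Of 58 genes with a higher fitted mean of at least 500, where Olfm4 lies, 1.72% had a value below 2 in the other genotype.

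**Figure D3:**
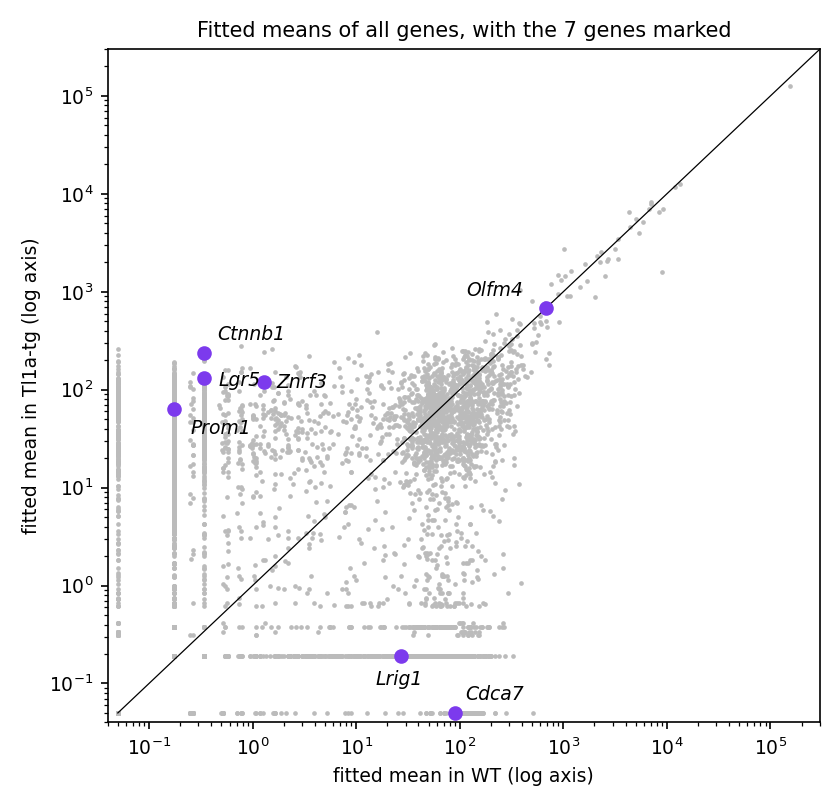
Fitted mean of every gene in Tl1a-tg (vertical) and in WT (horizontal), both on log axes, in depth-adjusted reads per library, with values below 0.05 drawn at 0.05 and the line of equality. Olfm4 lies on the line among abundant genes, and the other 6 marked genes lie in the bands at the floor, near 0 or at low means of 1 genotype that many other genes share.

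The genes with the nearest pair of fitted means were found by distance in log2 over the 2 genotypes. Nearest to Lgr5 were Sys1 (133 in Tl1a-tg and 0.342 in WT) and Gtf3c5 (126 and 0.342), at distances of 0.02 and 0.06. Nearest to Olfm4 were Mptx1 (630 and 699, distance 0.11) and AY761184 (562 and 602, distance 0.32). Nearest to Znrf3 were Sf1 (118 and 1.56, distance 0.27) and Ncstn (106 and 1.53, distance 0.30), and nearest to Ctnnb1 were Ube2d2a (202 and 0.342, distance 0.24) and Tmprss4 (139 and 0.342, distance 0.78).

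Among stem cell markers counted with reads in both genotypes, Lgr5 had the fitted means furthest apart, a difference that was not tested. Its WT value of 0.342 lies just above the floor. This ranking leaves out markers without reads in 1 genotype, as Prom1 (64.2 in Tl1a-tg), Tnfrsf19 (47.5 in Tl1a-tg) and Cdca7 (90.3 in WT). Of 30 stem cell markers, which include all of the 7 genes but Ctnnb1, 22 were in the table. Of these, 13 had reads in both genotypes, 5 in Tl1a-tg only, 2 in WT only and 2 in neither. Of the markers with reads, 25% had them in Tl1a-tg alone and 10% in WT alone, beside 38.2% and 19.9% of all genes with reads. Smoc2, a matrix protein enriched in Lgr5-positive cells, had 116 in Tl1a-tg, against 87.2 in WT, and Slc12a2, a sodium, potassium and chloride cotransporter of crypt cells, had 296 and 494. Soat1, a cholesterol esterifying enzyme, had 1.69 and 115, Scn2b 22.3 and 0.342, and Igfbp4, a binding protein of insulin-like growth factors, 23.0 with no reads in WT. Over the 8 markers measured in both genotypes, that is with fitted means of 10 or more in each, the median log2 fold change was 0.24, with 5 positive and 3 negative, beside -0.38 over the 1379 such genes of the table. Of the 22 listed markers 13 had an adjusted p, and 0 of these passed at an adjusted DESeq2 p below 0.05. Of all genes with an adjusted p, 3.67% did. An unadjusted p was given to 15, and it was below 0.05 for 3, all higher in Tl1a-tg and all among the 7 genes. Of all genes with a p, 14.6% had one in either direction and 10.7% in that direction. As the 7 genes were chosen with earlier results known, this count is a description. Of reserve stem cell genes, Msi2 had 148 in Tl1a-tg and 94.7 in WT, Hopx 20.3 and 45.4, and Krt19 108 with no reads in WT.

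Wnt ligands were thinly read. Of 24 ligand and release genes 5 were listed, none with reads in both genotypes: Wnt9a had 64.4 and Wnt7a 29.0 in Tl1a-tg without reads in WT, and Wnt1 had none in Tl1a-tg, against 36.6 in WT. Among 18 receptors 11 were listed, 3 with reads in both genotypes. Lgr4, the R-spondin receptor closely related to Lgr5, had 186 in Tl1a-tg, against 149 in WT, and the co-receptor Lrp6 had 45.5 and 53.9. Fzd9 had no reads in Tl1a-tg, against 107 in WT, and Lrp5 had none, against 0.546. No ligand gene had a deposited p, so none could be called. Only Lgr5 and Lrp5 of the receptors had one, neither passed the adjusted threshold, and the unadjusted p was below 0.05 for Lgr5.

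The destruction complex, which marks beta-catenin for degradation, and the other transducers were listed for 19 of 22 genes, 11 with reads in both genotypes. These counts include Ctnnb1. Of the 8 with a mean of at least 10 in each, the log2 fold change was positive for 4 and negative for 4, with a median of -0.24. The scaffolds Axin2 and Axin1 had 212 and 66.2 in Tl1a-tg, against 202 and 50.9 in WT. The kinase gene Gsk3b had no reads in Tl1a-tg, against 52.6 in WT, with p = 0.0147 and an adjusted DESeq2 p of 0.23 in the authors' deposited table. Its paralogue Gsk3a had no reads in Tl1a-tg, against 122 in WT, without a deposited p. The casein kinase gene Csnk1g2 had 42.0 in Tl1a-tg without reads in WT, and Csnk1g3 had 38.0, against 0.342. Of the 19 only 8 had an adjusted p, and 0 of these passed, where 3.67% of all genes with an adjusted p did.

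The nuclear partners of beta-catenin had reads in both genotypes for 9 of 14 listed genes, with a median log2 fold change of -0.45 over the 6 measured in both, 1 positive and 5 negative. Tcf7l2, the main TCF factor of the intestinal epithelium, had 168 in Tl1a-tg and 170 in WT. The acetyltransferase Ep300 had 219 and 44.7, the corepressor Tle3 52.1 and 246, and the coactivator Bcl9l 2.97 and 42.1. Among junction partners, which bind beta-catenin at the membrane, E-cadherin (Cdh1) had 242 and 538 and alpha-catenin (Ctnna1) 107 and 60.1. Vinculin (Vcl) had no reads in Tl1a-tg, against 114 in WT (p = 0.037 and adjusted p = 0.23 by DESeq2 in the authors' deposited table). An adjusted p was given to 6 nuclear and 5 junction partners, and 0 of these passed, where 3.67% of all genes with an adjusted p did.

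Wnt target genes other than Lgr5, Znrf3 and Cdca7 spread to either side. Of 24 targets, Lgr5, Znrf3 and Cdca7 counted among them, 21 were listed, 13 with reads in both genotypes. Over the 9 measured in both, which hold none of these 3 genes, the median log2 fold change was -0.28, with 4 positive and 5 negative. Sox9, a transcription factor of stem and Paneth cells, had 432 in Tl1a-tg and 524 in WT. The receptor tyrosine kinases Ephb2 and Ephb3, which position cells along the crypt, had 113 and 145 in Tl1a-tg, against 256 and 299 in WT. Jun, a subunit of the AP-1 transcription factor, had 3.94 and 22. Myc, a driver of growth, had 33.7 in Tl1a-tg without reads in WT, and Cd44, an adhesion receptor of crypt cells, had no reads in Tl1a-tg, against 124 in WT. Of the 21 listed targets 11 had an adjusted p, and 0 of these passed, where 3.67% of all genes with an adjusted p did. An unadjusted p was given to 12, and it was below 0.05 for 2, Lgr5 and Znrf3, both higher in Tl1a-tg. Of all genes with a p, 14.6% had one in either direction and 10.7% in that direction.

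Of 22 Wnt inhibitors, Znrf3 counted among them, 11 were listed, 5 with reads in both genotypes. Rnf43, the partner ligase of Znrf3, had 80.9 in Tl1a-tg, against 47.0 in WT, with a log2 fold change of 0.79 (standard error 3.98) in the authors' deposited table. Notum, which removes the lipid from Wnt ligands, had 8.78 in Tl1a-tg and no reads in WT, and Shisa3 had no reads in Tl1a-tg, against 45.0 in WT. Sostdc1, which antagonises BMP and Wnt ligands, was the only gene of these lists to pass and 1 of 4 inhibitors with an adjusted p, with an adjusted DESeq2 p of 0.0452 in the authors' deposited table. It had no reads in either genotype, both fitted means being near 0, and its log2 fold change of -14.35 turned to 0.13 with near-0 means at the floor.

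**Figure D4:**
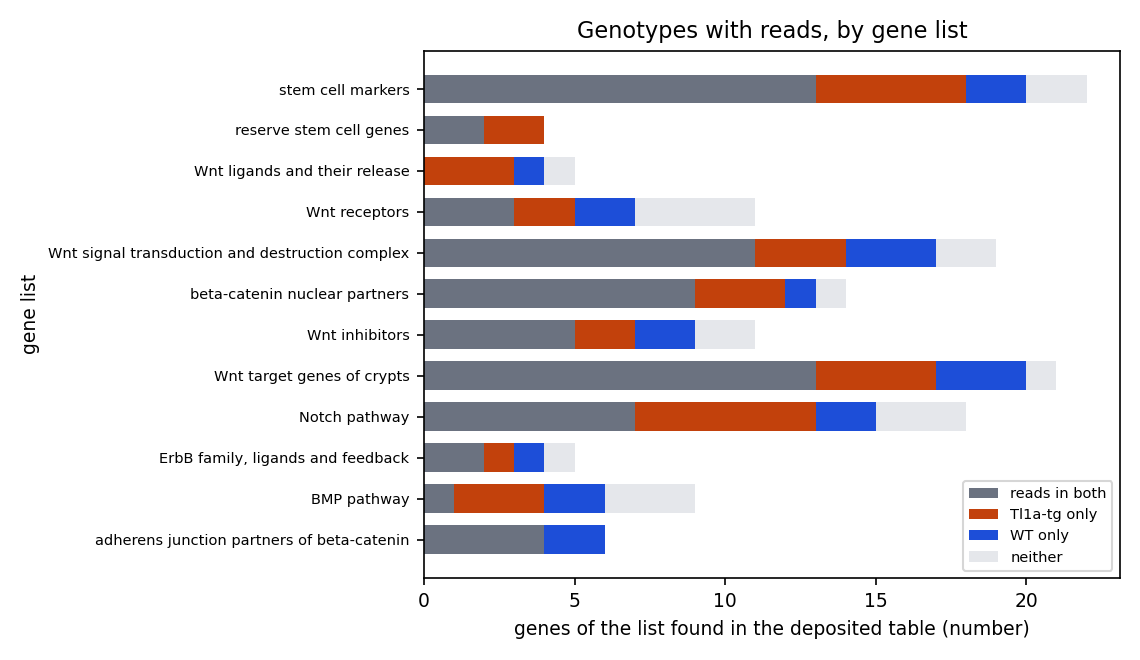
Number of genes of each list found in the deposited table, by the genotypes in which they had reads by their fitted means (both, Tl1a-tg only, WT only, neither). Lists overlap, and reads in both genotypes were found for 0 of 5 Wnt ligand genes and for 13 of 22 stem cell markers.

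Over the 6 Wnt lists together, without the 7 genes, 69 of 118 genes were listed, 33 with reads in both genotypes, 15 in Tl1a-tg only, 10 in WT only and 11 in neither. Of those with reads, 25.9% had them in Tl1a-tg alone and 17.2% in WT alone, beside 38.2% and 19.9% of all genes with reads. Over the 24 measured in both the median log2 fold change was -0.26, with 9 positive and 15 negative, beside -0.38 over all genes measured in both. An unadjusted p below 0.05 was given to 0 genes higher in Tl1a-tg and 2 lower, of 32 with a p, in the authors' deposited table, where 10.7% and 3.91% of all genes with a p had one. The 2 were Gsk3b and Sostdc1, and Sostdc1 had no reads in either genotype. The median standard error of genes measured in both was 3.93 on the log2 scale, so differences of several-fold were not detectable in any of these lists.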

How the data were processed

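The submitters' processing notes name the authors' tools as DESeq2, RSEM 1.2.15, Bowtie2 2.1.0, Trimmomatic and FastQC, without saying what each did. The genome build is not given in the sources used here. The deposited signal is called normalized counts, but column ratios within a genotype were constant over genes (relative range at most 1.67e-14). It is therefore 1 fitted mean per genotype times a library factor. The authors' deposited log2 fold changes (Tl1a-tg over WT), standard errors, Wald score and p-values were used as the test, with a threshold of 0.05, and missing p stayed missing. Without read numbers the depth is unknown, so intervals for counting error are left out.

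Computed with Python 3.11.15, NumPy 2.4.6, pandas 2.3.3 and SciPy 1.17.1 were the factors (geometric mean 1), the floor (within 1%), the dispersion (means of at least 0.5 in the weights), 95% intervals and Benjamini-Hochberg adjustment, checked on simulated data. Measured in both means 10 or more in each genotype. Members and lists were chosen with earlier results of these data known. Named are the 7 genes, from each of 12 pathway lists the 3 other genes with the smallest p (else the highest mean), and the 2 nearest patterns. Other named genes were chosen after their values were seen.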

Additional observations from a re-analysis of the deposited data

How the results depend on the processing

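No paired analysis was possible because the per-library values hold 1 fitted mean per genotype. For the same reason, fits that leave out a library were not run. The count of the 7 genes past the adjusted threshold was 0 in the authors' deposited table, 0 with p adjusted over every gene with a deposited p, 0 with near-0 means at the floor and 1 with log2 fold changes centred on the measured genes, namely Ctnnb1 (adjusted Wald p = 0.0495). Over these alternatives the adjusted p of Ctnnb1 ran from 0.0495 to 0.248. Centring added 0.38 to every log2 fold change, and equal totals of fitted means added 0.14. The count with an unadjusted p below 0.05 was 4 under each setting run. The floor setting could not move it, as Cdca7, the only gene of the 7 with a near-0 mean, has no p.

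Of 49 log2 fold changes of the 7 genes under alternatives, 45 kept their sign, and the other 4 were of Olfm4, whose value of -0.01 lies near 0. A pseudocount cannot change a sign, and the shifts are small beside the fold changes of the other genes. Their kept signs are therefore no support. A pseudocount of 10 brought Ctnnb1 to 4.59 and Cdca7 to -3.33, and Cdca7 was -8.87 with its near-0 mean at the floor. Over all pathway lists the median log2 fold change was -0.02 for 41 genes measured in both, 0.13 for 128 genes without a filter and 0.37 for 95 genes with a mean of at least 10 over both genotypes, where all genes of the table had 0.13 and 0.68. Sostdc1 turned from -14.35 to 0.13 with near-0 means at the floor, which the floor itself fixes, and had an adjusted Wald p of 0.0588 when centred.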

Other observations

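Notch, ErbB and BMP signals also shape the crypt base. Notch signalling between neighbours keeps stem cells from taking a secretory fate. Of 31 Notch genes 18 were listed, 7 with reads in both genotypes, 6 in Tl1a-tg alone and 2 in WT alone. Of the Notch genes with reads, 40% had them in Tl1a-tg alone and 13.3% in WT alone, beside 38.2% and 19.9% of all genes with reads. The fitted mean of Notch1 was 86.2 in Tl1a-tg, against 66.7 in WT, and that of Atoh1, the factor of secretory fate, 62.6 against 100.02. Ncstn, a subunit of the gamma-secretase that cleaves Notch, had 106 and 1.53, Mib1, a ligase for Notch ligands, 62.8 with no reads in WT, and Rfng, a glycosyltransferase of Notch, no reads in Tl1a-tg, against 84.3 in WT. Of the Notch genes 5 had an adjusted DESeq2 p in the authors' deposited table, and 0 of these passed at 0.05. Of all genes with an adjusted p, 3.67% did.

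Of 21 genes of the ErbB family, which Lrig1 dampens, 5 were listed. Egfr had 41.0 in Tl1a-tg without reads in WT, Erbb3 had 67.7 and 64.6, and Dusp6 had no reads in either. Of 22 BMP genes 9 were listed and 1 had reads in both genotypes, Bmpr2 with 6.67 in Tl1a-tg and 9.01 in WT. Bmp4 had 5.53 in Tl1a-tg without reads in WT. Smad4, the shared mediator of BMP and TGF-beta signals, had no reads in Tl1a-tg, against 189 in WT, with p = 0.00593 and an adjusted DESeq2 p of 0.143 in the authors' deposited table. Only 2 of the ErbB genes, Erbb3 and Lrig1, and 1 of the BMP genes, Smad4, had an adjusted p, and none of these passed, where 3.67% of all genes with an adjusted p did.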
